A study of Mus musculus with 14 samples.

Results

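The genes described here, Cd79a, Cd79b, Cd22, Syk, Lyn, Btk, Blnk, Plcg2 and Blk, encode proteins that carry or restrain the signal of the B cell receptor, and were taken by symbol from the gene list of the deposited matrices (9 of 32285 genes). They were measured as unique molecular identifiers (UMIs) per gene and cell in white nodules of 7 Eif3e fl/fl Cγ1Cre mice, which lose Eif3e, a subunit gene of the translation initiation factor eIF3, in B cells where the Cγ1 locus that drives Cre is active. A single-cell RNA library was made from each nodule, and beside it a V(D)J library of rearranged antigen receptor transcripts. The B cell receptor was sequenced in mouse 27 (liver, 12 months), mouse 29 (lung, 12 months), mouse 31 (spleen, 13 months), mouse 33 (thymus, 16 months) and mouse 34 (lung and thymus, 9 months), and the T cell receptor in mouse 30 (liver, 14 months) and mouse 32 (spleen, 12 months). In the genotypes that the study lists, mice 29, 31, 32 and 34 also carried the Rosa26-YFP reporter allele, and mice 27, 30 and 33 are listed without it. The nodule of mouse 27 is described as a secondary tumor grown in a Rag2-/- recipient, a host without mature B or T cells of its own. The study reports that B and CD4+ T cells of the tumors lacked YFP and had normal eIF3e protein levels. Whether the clones described here had lost Eif3e was not tested. A nodule of a mouse without the deletion was not analysed here, so the values compare mice, or cells of the same nodule, and not a deleted with an intact state.

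In a resting B cell, membrane immunoglobulin is held by a heterodimer of the CD79a and CD79b chains, whose cytoplasmic tails carry the signaling motifs that the immunoglobulin itself lacks. Upon antigen binding, the Src family kinases LYN and BLK phosphorylate these tails, SYK docks there and phosphorylates the adaptor BLNK, and BLNK brings the kinase BTK to its substrate phospholipase Cγ2, the product of Plcg2, which starts calcium release. CD22 is a sialic acid-binding receptor that, once phosphorylated by LYN, recruits phosphatases and damps the signal. Lymphomas of mature B cells often depend on this chain of proteins, and inhibitors of BTK are used to treat some of them.

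The clone of each mouse was the family of cells with its commonest heavy chain, or with the light chain paired with it, and held 1782, 323, 3974, 1084 and 1416 cells in mice 27, 29, 31, 33 and 34, of which 8413 of 8579 fell in clusters named B-like by markers such as Ms4a1, Pax5 and Ebf1. Other B cells, with a receptor outside the family and in B-like clusters, numbered 32, 41, 27 and 24 in mice 29, 31, 33 and 34, and 0 in mouse 27. Of these 124 cells, 32 carried a V gene of the clone of their own mouse, 22 of them in mouse 33, and whether these belong to the clone was not tested. B-like cells without a receptor call form a further group, and whether they belong to the clone was not tested. Levels are given in CPM, the UMIs of a gene summed over all cells of a group and scaled to a total of 1000000 UMIs of these cells. Library totals ran from 19264039 to 123456962 UMIs, and the median clone cell held 9367 to 13763 UMIs, against 2043 to 9447 in the other B cells. Barcodes shared by libraries (3307 in all) include those of 722 B clone cells, and leaving these out moved a level in a clone by at most 5.85%.

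Cd79a and Cd79b encode the signaling heterodimer. Cd79a (chr7:24897497-24901858) was at 1023, 756, 744, 279.9 and 1121 CPM in the clones of mice 27, 29, 31, 33 and 34 (785 ± 327, SD, n = 5). Cd79b (chr11:106311341-106314562) was at 389, 238, 257, 222 and 422 CPM in the same order (305 ± 92.7, SD, n = 5). The clone of mouse 33 was thus the lowest for both, and was set apart from the others in Cd79a, for which the next lowest clone was at 744 CPM, whereas its Cd79b was close to that of mice 29 and 31. At least 2-fold below all other clones in mouse 33 were 2.68% of the 6008 genes with a mean of 20 CPM or more, Cd79a being the only one of the 9 genes among them. The same rule placed none of the 9 genes apart in the clone of mouse 27 (1.15% of genes below and 0.999% above), mouse 29 (5.16% and 1.81%) or mouse 34 (0.566% and 1.43%), and none above in mouse 33 (1.18%).

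Within a cell group, the ratio of Cd79a to Cd79b UMIs does not depend on the total by which levels are scaled. It was 2.63, 3.18, 2.89 and 2.66 in the clones of mice 27, 29, 31 and 34, but 1.26 in that of mouse 33 (95% exact interval for counting error, 1.21 to 1.32). B-like cells without a receptor call gave 2.71, 3.13, 3.15, 0.914 and 2.88 in mice 27, 29, 31, 33 and 34. They may include clone cells that got no call, so they are no independent check on the clone. In mouse 33 the cluster holding most clone cells had the V genes of the clone, Iglv2 and Ighv9-3, among its leading genes. The other B cells gave 3.81, 5.28, 1.29 and 2.69 in mice 29, 31, 33 and 34. In each of these groups the ratio of mouse 33 was the lowest of the mice with a B clone. Its other B cells were not uniform. The 22 with a V gene of its clone gave 45 Cd79a and 50 Cd79b UMIs. The 5 without one gave 27 and 6, so the ratio of 1.29 rests largely on cells that may belong to the clone. The few B-like cells of mice 30 and 32 gave 1.71 (1.18 to 2.49) and 6.50 (1.47 to 59.3), the interval of mouse 30 overlapping that of the clone of mouse 33. Since this is 1 animal and 1 library, the difference has no replicate check. UMIs per gene also depend on transcript length and on the priming end, so a ratio of 1 does not mean equal numbers of chains.

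**Figure D1:**
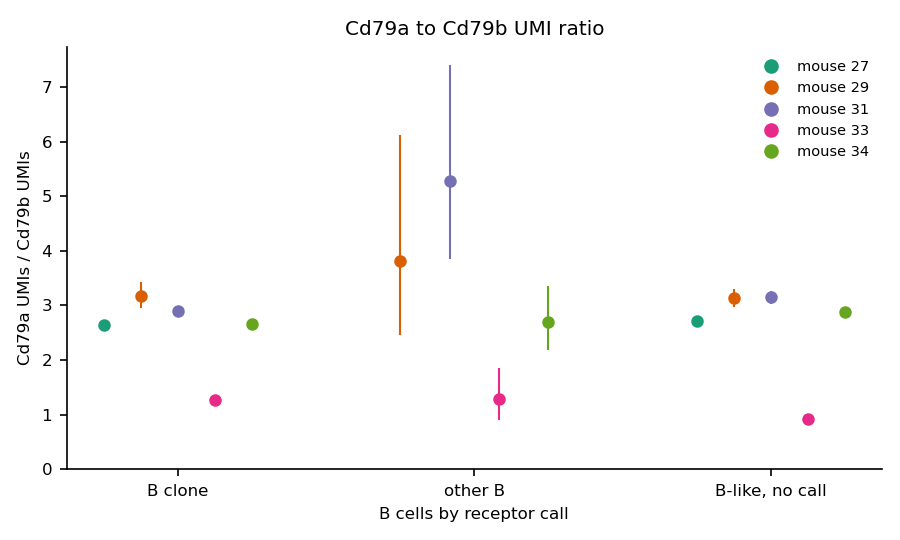
Ratio of Cd79a to Cd79b UMIs (vertical axis, linear) by group of B cells (horizontal axis), 1 point for each of mice 27, 29, 31, 33 and 34, with 95% exact intervals for counting error. The points of mouse 33 lie between 0.914 and 1.29, below all plotted points of the other 4 mice, which lie between 2.63 and 5.28.

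The promoter of Cd79a is shown because this gene set the clone of mouse 33 apart. Its 250 bases before the start site (RefSeq, GRCm38.p6, chr7:24897247-24897496, plus strand) are printed 5′ to 3′ with matches of short motifs of B cell factors in capitals.
Cd79a: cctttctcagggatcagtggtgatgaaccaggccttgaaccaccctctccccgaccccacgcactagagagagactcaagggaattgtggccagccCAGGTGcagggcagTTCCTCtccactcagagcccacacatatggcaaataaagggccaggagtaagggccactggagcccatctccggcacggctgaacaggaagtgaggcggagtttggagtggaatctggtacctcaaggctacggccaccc
The capitals mark an E-box, CAGGTG, at bases -154 to -149 from the start, a motif of the E2A family, and a purine box, GAGGAA on the opposite strand, at -140 to -135, a core of PU.1 sites. Searched on both strands with no overlap between them, these letters occur in 17.2% and 23.3% of 32851 mouse promoters of the same length, so either match alone is common.

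The neighbors of Cd79a on chromosome 7 were looked up after its values were seen. Rps19, which encodes a ribosomal protein and lies just before it, was at 2752 to 3512 CPM in the clones of mice 27, 29, 31 and 34 and at 5167 in mouse 33. Arhgef1, just after it, was at 79.5 to 119.6 CPM in the same 4 clones and at 60.6 in mouse 33. Neither neighbor was lower in mouse 33 to the extent of Cd79a.

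**Figure D2:**
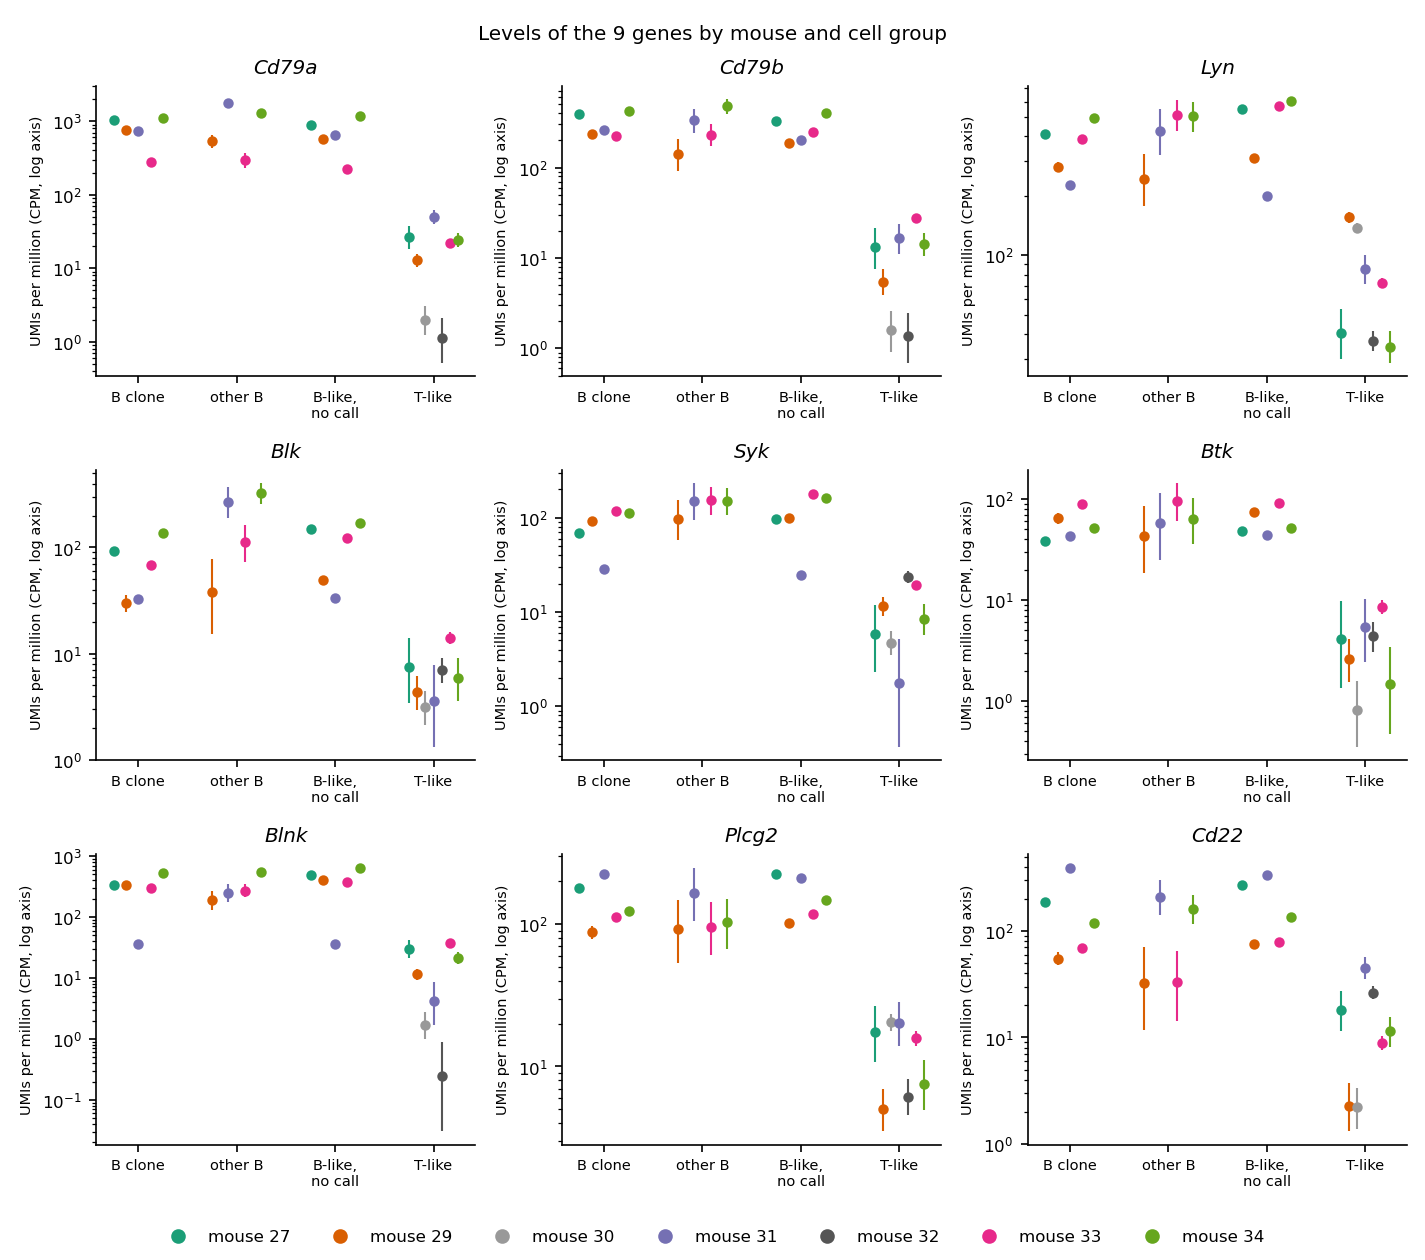
Levels of the 9 genes (CPM, log axis) in B clone cells, other B cells, B-like cells without a receptor call and T-like cells, 1 point a mouse, with exact Poisson intervals. Groups in which a mouse had no UMI of the gene show no point. Blnk and Syk of the clone of mouse 31 lie apart from the other clones at 35.8 and 28.3, as does Cd79a of mouse 33 at 279.9.

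Lyn and Blk encode the Src family kinases of the receptor. Lyn (chr4:3678068-3791612) was at 410.2, 280.4, 228, 389 and 494 CPM in the clones of mice 27, 29, 31, 33 and 34 (360.2 ± 106, SD, n = 5). Blk (chr14:63372837-63417187), whose expression is largely a B-lineage trait, was at 93.2, 30.01, 32.6, 68.3 and 137 CPM (72.1 ± 44.6, SD, n = 5). Both were highest in mouse 34. The range over clones was 2.17-fold for Lyn and 4.55-fold for Blk, against a median range of 2.22-fold over the 6008 genes.

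In the other B cells, Blk was at 37.8, 267, 111 and 324 CPM in mice 29, 31, 33 and 34, above the clone of the same mouse in each. The ratio of clone to other B cells was 0.795, 0.122, 0.612 and 0.422, and the interval for counting error excluded 1 in mice 31, 33 and 34. Lyn was at 243, 426, 512 and 505 CPM in these cells, with ratios of 1.16, 0.535, 0.759 and 0.978. Blk thus leaned the same way in every pair, while Lyn was below the other B cells in 3 of 4. In mouse 33 the 22 other B cells with a V gene of the clone were at 136 CPM for Blk. The 5 without one were at 19.6, on 1 UMI, which is below the clone. In mouse 34 both kinds, at 280 and 349 CPM, were above the clone.

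Syk and Btk encode the kinases that act next. Syk (chr13:52582610-52648792) was at 69.0, 92.3, 28.3, 118 and 113 CPM in the clones of mice 27, 29, 31, 33 and 34 (84.2 ± 36.8, SD, n = 5). Mouse 31 was the low one, at least 2-fold below each of the others. In the other B cells Syk was at 97.1, 152, 153 and 149.97 CPM in mice 29, 31, 33 and 34, so that mouse 31 was not low there. The ratio of clone to other B cells was 0.951, 0.187, 0.774 and 0.756, and only that of mouse 31 had an interval for counting error that excluded 1 (0.122 to 0.303).

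Btk, an X-linked gene (chrX:134542334-134583628) of the Tec kinase family, was the least variable of the kinases after Lyn. It was at 38.3, 64.1, 43.4, 89.2 and 51.3 CPM in the clones (57.3 ± 20.3, SD, n = 5) and at 43.1, 57.7, 94.96 and 63.1 CPM in the other B cells of mice 29, 31, 33 and 34. Every interval of its within-mouse ratio (0.751 to 1.49) included 1.

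Blnk and Plcg2 encode the adaptor and the lipase that turn kinase activity into a calcium signal. Blnk (chr19:40928927-40994221) was at 338, 338, 35.8, 304 and 531 CPM in the clones of mice 27, 29, 31, 33 and 34 (309 ± 177, SD, n = 5). Its range over clones, 14.9-fold, was the widest of the 9 genes, and 6.19% of the 6008 genes ranged more widely. Most of that width came from mouse 31, since the other clones lay within 304 to 531 CPM. At least 2-fold below all other clones in mouse 31 were 2.20% of genes, Blnk and Syk among them.

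The low Blnk of mouse 31 was not seen in its other B cells, at 253 CPM against 189, 273 and 549 in mice 29, 33 and 34. The ratio of clone to other B cells in mouse 31 was 0.142 (0.101 to 0.204), compared with 1.79, 1.12 and 0.968 in mice 29, 33 and 34. B-like cells of mouse 31 without a receptor call were at 35.6 CPM for Blnk, 24.5 for Syk and 33.5 for Blk, close to its clone, whereas the same group of the other mice lay between 370 and 629 CPM for Blnk. With each cell thinned to 2000 UMIs, 7.45% of clone cells of mouse 31 held a Blnk UMI (25.5% before thinning, at a median of 11200 UMIs), against 44.1% to 60.8% in the other clones. Cells under 2000 UMIs were left out of the thinning, which kept 3962 of 3974 cells of the clone of mouse 31 and 297 of its 870 T-like cells. T-like cells, which should lack Blnk, held one in 0.0597% to 5.20% of thinned cells, 1.01% (0.209% to 2.92%) in mouse 31, where the thinned T-like cells had a median of 2596 UMIs. Within mouse 31 the clone was thus above its T-like cells, also in CPM (35.8 against 4.16), but its CPM was no higher than that of T-like cells of mouse 33, at 36.8. The latter include a T-like cluster, with 417 of its 499 cells in mouse 33, that met 4 B markers. Iglv2, the light chain V gene of that clone, was among its leading genes. Whether B cell RNA adds to this level was not tested.

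The promoter of Blnk is shown because this gene had the widest range between clones, although the SD relative to the mean was larger for Cd22 (82.7%) and Blk (61.8%) than for Blnk (57.3%). The 250 bases before its start (RefSeq, GRCm38.p6, chr19:40994222-40994471, minus strand) are printed 5′ to 3′ along the gene.
Blnk: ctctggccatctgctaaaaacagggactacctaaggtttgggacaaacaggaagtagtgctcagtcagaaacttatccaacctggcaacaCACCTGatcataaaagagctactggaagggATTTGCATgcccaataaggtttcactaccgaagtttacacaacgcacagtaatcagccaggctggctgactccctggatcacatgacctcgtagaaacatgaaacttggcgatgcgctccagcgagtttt
The capitals mark an E-box, CACCTG, at -160 to -155 and an octamer, ATTTGCAT, at -130 to -123, both read here on the strand opposite to CAGGTG and ATGCAAAT. The octamer is the site of the POU factors OCT1 and OCT2, which act in B cells with the coactivator encoded by Pou2af1, and its letters occur in 1.60% of the 32851 promoters. Among the 6 members with a promoter in the RefSeq table used, Blnk alone held an octamer match, and Btk held none of the searched motifs. Cd79b, Lyn and Blk had no entry there.

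Genes around Blnk on chromosome 19 were chosen after its values were seen. Hells, which encodes a chromatin remodeler, had 166 CPM in the mouse 31 clone and 125 to 177 in the others. Pik3ap1, which encodes another adaptor of the B cell receptor, was at 119 CPM in mouse 31 and at 109 to 311 in the others. Tm9sf3 was at 202 CPM in mouse 31 and at 178 to 304 in the others. Zfp518a, the nearest of them before Blnk, was lowest in mouse 31, at 13.5 CPM against 23.1 to 30.04, while the other 3 genes were within the range of the other clones.

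Plcg2 (chr8:117498275-117635142) was at 178, 87.7, 226, 112 and 124 CPM in the clones of mice 27, 29, 31, 33 and 34 (145 ± 55.8, SD, n = 5). It was highest in mouse 31, the clone in which Blnk and Syk were lowest. In the other B cells it was at 91.7, 166, 94.96 and 103 CPM in mice 29, 31, 33 and 34. Mouse 31 was the highest there as well, and the interval of each within-mouse ratio (0.957 to 1.36) included 1.

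Cd22 (chr7:30865404-30880342), the inhibitory receptor, was at 188, 55.1, 388, 68.9 and 119.7 CPM in the clones of mice 27, 29, 31, 33 and 34 (164 ± 136, SD, n = 5). The clone of mouse 31 was more than 2-fold above every other, as were 2.71% of genes in that clone, and its B-like cells without a receptor call were also the highest of that group, at 338 CPM. In the other B cells Cd22 was at 32.4, 209, 33.03 and 162 CPM in mice 29, 31, 33 and 34, with ratios of clone to other B cells of 1.70, 1.85, 2.09 and 0.740. The intervals of mice 31 and 33 excluded 1. In mouse 33 the other B cells held 8 Cd22 UMIs, all in the 22 cells with a V gene of its clone. The 5 cells without one held 0, so this ratio rests on cells that may belong to the clone. The clone of mouse 31 therefore combined the highest Cd22 and Plcg2 with the lowest Blnk, Syk and Lyn of the 5 clones.

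Whether the clones as a group differed from other B cells was tested over mice 29, 31, 33 and 34, with the sums of clone and other B cells of a mouse as a pair (edgeR's quasi-likelihood test, Benjamini-Hochberg adjustment over all genes). None of the 9 genes passed an adjusted p of 0.05, where 0.278% of 10806 genes did (30 genes, of which 6, or 0.0555%, were higher and 24, or 0.222%, lower in the clones). At an unadjusted p under 0.05, 2 of 9 passed (Blk and Syk), where 12% of all genes did, and DESeq2 also called 0 of 9 at an adjusted p of 0.05, where it called 1.40% of genes. The log2 difference, clone minus other B cells, was -1.36 for Blk (SE 0.37, edgeR quasi-likelihood adjusted p = 0.219, lower in 4 of 4 mice, 0.0612 to 0.794 over the alternatives). It was -0.77 for Syk (SE 0.34, edgeR quasi-likelihood adjusted p = 0.409, lower in 4 of 4 mice, 0.315 to 0.946 over the alternatives). Of all genes, 4.64% were lower in the clone in 4 of 4 mice and 17.4% were higher, with 2 and 0 of the 9 genes among them. Without mouse 31 the difference of Syk was -0.43 and that of Blk -0.96. In cells of 5000 to 15000 UMIs, a range added after seeing the data, the difference was -0.11 for Syk and -0.85 for Blk, on 18, 10, 16 and 10 other B cells in mice 29, 31, 33 and 34.

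The other 7 genes had log2 differences of -0.38 for Blnk (SE 0.44), -0.27 for Lyn (SE 0.24), -0.25 for Cd79a (SE 0.26), -0.06 for Btk (SE 0.27), 0.04 for Cd79b (SE 0.24), 0.25 for Plcg2 (SE 0.28) and 0.56 for Cd22 (SE 0.33), with adjusted p of 0.532 to 0.973 (edgeR's quasi-likelihood test). Without mouse 31, Cd22 was at 0.19, Plcg2 at 0.018, Cd79a at -0.08 and Blnk at 0.16, and Cd22 was at 0.86 without mouse 34. The median over all tested genes was 0.20, so that the median of the 9 genes, -0.25, lay below it. With size factors by the RLE method, the median of all genes was 0.04 and that of the 9 genes -0.41, and Cd79b turned to -0.12. The other B cells gave 6 to 326 UMIs for a member and mouse, which limits these differences more than the clones do. In simulated counts this comparison recovered 8.7% of 2-fold and 52.7% of 4-fold changes, so a gene that did not pass may still differ.

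**Figure D3:**
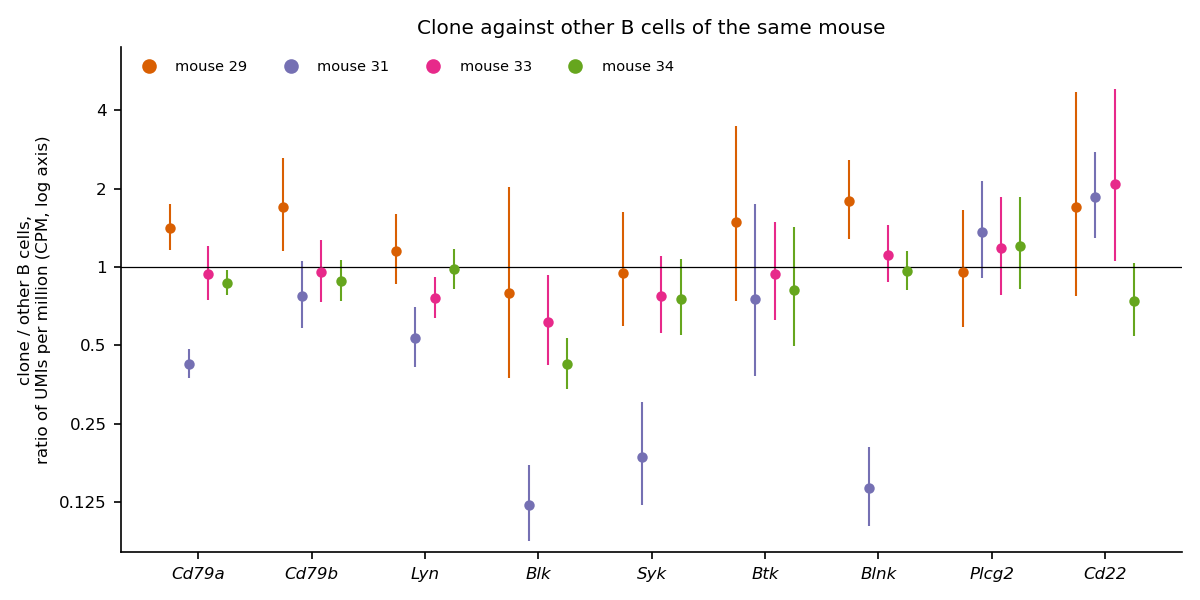
Ratio of CPM in clone cells to other B cells of the same mouse (log axis) for the 9 genes, 1 point for each of mice 29, 31, 33 and 34, with 95% exact intervals for counting error. The line marks a ratio of 1, and all points of Blk and Syk lie below it, those of mouse 31 lowest, at 0.122 and 0.187.

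Of 90 further genes of the receptor pathway listed by role, 84 were tested and 1 passed, Ighm, which encodes the heavy chain of IgM. Its level was 8.72, 0.329, 1.02 and 1.44 CPM in the clones of mice 29, 31, 33 and 34, and 27456, 166, 8303 and 162 CPM in the other B cells. All clones were below the other B cells of their mouse (log2 difference -10.25, SE 1.12, edgeR quasi-likelihood adjusted p = 0.0017, lower in 4 of 4 mice). An Ighm UMI was held by 20 of 32, 14 of 41, 5 of 27 and 5 of 24 other B cells of these mice, so that in mice 33 and 34 the level rests on 5 cells each. The other roles gave 0 calls each, among them 3 coreceptor genes, 5 inhibitory receptors, 7 phosphatases, 8 further Src, Tec and regulatory kinases, 14 adaptors, 6 phosphoinositide 3-kinase genes, 11 calcium and NFAT genes, 12 genes of the Ras and MAP kinase branch and 7 early target genes. The median log2 difference over the 84 genes was -0.14, and it was -1.09 over the 7 early targets, with 0 called. That median is the value of Ccl4, which was lower in the clone only in mouse 34 (18.0 against 497 CPM). Nr4a1 was at 5.50 against 700 CPM in mouse 31 and 26.5 against 209 in mouse 34. In mouse 33 it was higher in the clone, at 82.0 against 45.4 CPM. Egr1 was lower in the clone of each mouse. DESeq2 called 7 of the 84 genes, all lower in the clones, where it called 1.14% of all genes lower. The 84 include 6 immunoglobulin chain genes, with a median log2 difference of -1.93 by edgeR. Without immunoglobulin genes edgeR called 0 of 78 pathway genes, and DESeq2 was not run without them.

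Clone cells with a heavy chain contig were next compared with those assigned through the light chain alone, as the heavy chain is the part of the receptor that CD79 holds. Mice 27, 29, 31, 33 and 34 had 1153, 233, 3433, 412 and 1271 cells of the former kind and 629, 90, 541, 672 and 145 of the latter. Cells without a heavy contig held fewer UMIs in each mouse, with medians of 8467 against 11564 in mouse 31 and 7592 against 11632 in mouse 34. A missing contig does not show that a cell lacks a heavy chain, and its relation to depth was not tested. None of the 9 genes passed (edgeR's quasi-likelihood test, adjusted p of 1 for each), where 0.0152% of 13128 genes did (2 genes, the V genes of the clones of mice 31 and 29, Ighv1-18 and Ighv1-85, named after their values were seen). At an unadjusted p under 0.05 the count was 0 of 9, where 3.99% of genes passed, and DESeq2 called 0 of 9 and 2 genes in all, both lower with a heavy contig, whereas the 2 V genes were higher. Log2 differences of the 9 genes ran from -0.05 for Cd22 (SE 0.10) to 0.14 for Blk (SE 0.10). None of the 89 tested pathway genes passed with edgeR, against 1 with DESeq2, 2 without mouse 34 and 3 of 90 without the filter on low counts. In mouse 33, 672 of 1084 cells joined the clone through a lambda light chain, a class with few V genes and little junctional diversity in the mouse. Its Cd79a was at 272 CPM in the cells with a heavy contig and 285 in those without, so the low level did not come from these cells alone.

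Some clones held a second heavy chain sequence, which allowed a comparison within 1 mouse and 1 library. In mouse 33, 271 cells had the commonest heavy chain and 94 the second, both of IGHV9-3 and IGHJ3. The CDR3 sequences are shown because they mark the cells compared, and the 3 bases in capitals are those that the second sequence lacks.
commonest heavy chain: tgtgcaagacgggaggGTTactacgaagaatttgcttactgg
second heavy chain: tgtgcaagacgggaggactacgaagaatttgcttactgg
Their lengths of 42 and 39 bases keep the reading frame. Syk was at 181 CPM in the cells with the commonest chain and 41.1 in those with the second, a ratio of 4.40 (3.42 to 5.76). Blk was at 108 and 32.3 CPM, a ratio of 3.35 (2.50 to 4.57). Both genes were thus lower in the cells with the shorter CDR3, and by the size of the fold they ranked 89 and 138 among 5499 genes. In all, 7.95% of these genes differed by at least 2-fold, 5.80% with the commonest chain higher, and Syk and Blk were 2 of 9 members.

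The remaining genes of mouse 33 differed less between the chains. Lyn, Cd79b, Blnk and Cd22 had ratios of 1.43, 1.37, 1.36 and 1.26, and Btk, Plcg2 and Cd79a of 1.11, 0.873 and 0.832. Within the main cluster of this clone, Syk was at 193 CPM with the commonest chain and 42.2 with the second, and within its cycling cluster at 168 and 45.6 CPM, so the difference was present in both. The split had no replicate, as each chain was found in 1 mouse, and no test was made. The low Cd79a of mouse 33 was shared by both groups, at 263 and 316 CPM.

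In mouse 27 (783 and 351 cells) the ratios of the 9 genes ran from 0.748 for Blk to 0.988 for Plcg2, and in mouse 34 (738 and 154 cells) from 0.607 for Cd22 to 1.19 for Cd79a. None reached 2-fold, where 0.0167% and 3.15% of genes did. In mouse 31 the second chain was found in 27 cells, against 3274 with the commonest, and was added after seeing the data. Blk was there at 33.7 CPM with the commonest and 9.42 with the second chain, a ratio of 3.57 (1.22 to 17.4) on 3 UMIs in the second, in the same direction as in mouse 33. The other 8 genes of mouse 31 had ratios of 0.823 for Lyn to 1.58 for Blnk, with Syk at 1.52 (0.694 to 4.14), and 4.38% of 5707 genes reached 2-fold, 3.91% with the commonest chain higher.

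**Figure D4:**
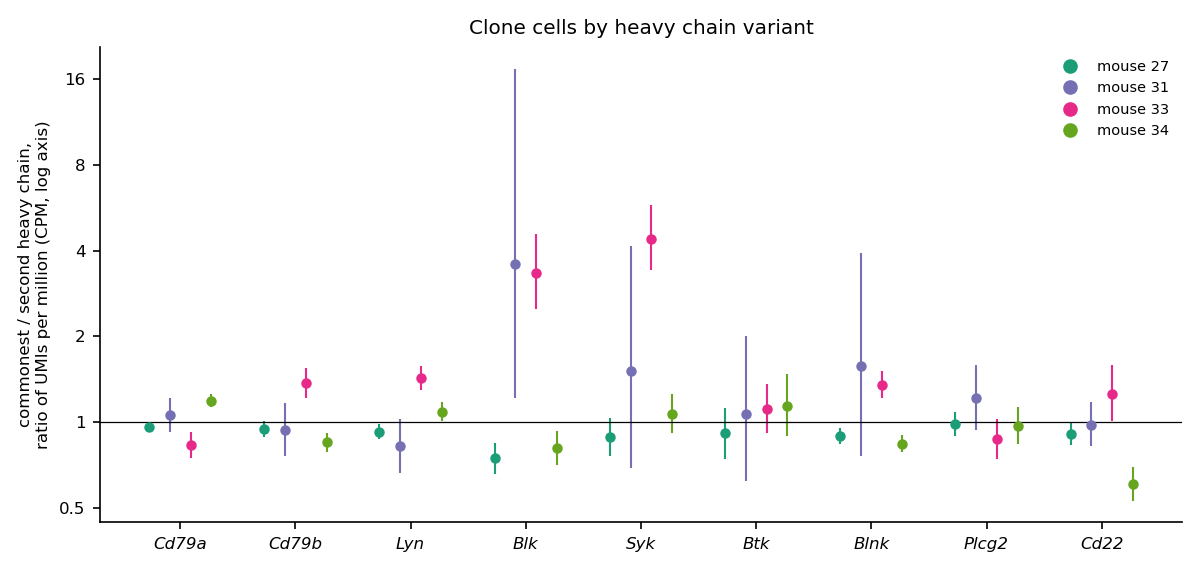
Ratio of CPM between clone cells with the commonest and the second heavy chain (log axis) for the 9 genes in mice 27, 31, 33 and 34, with 95% exact intervals for counting error. Syk and Blk of mouse 33 stand at 4.40 and 3.35 and Blk of mouse 31, with a wide interval, at 3.57, while all points of mice 27 and 34 lie between 0.607 and 1.19.

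Within a clone, levels also varied with the cluster. Clones of mice 27, 31, 33 and 34 each had a main cluster, with Mki67, a marker of dividing cells, at 296, 283, 96.7 and 264 CPM, and a cycling cluster, with Mki67 at 1014, 1434, 636 and 984 CPM. Cd79a was at 1137, 813, 307 and 1227 CPM in the main clusters and at 856, 456, 207 and 985 in the cycling ones. Cd79b was at 419, 291, 245 and 483 CPM in the main clusters and at 345, 140.2, 185 and 341 in the cycling ones. Both chains were lower in CPM in the cycling cluster of each of these mice. Cells of the cycling clusters held more UMIs (medians of 10648 to 18899, against 8931 to 13904). Counted per cell, Cd79a was at 10.96, 9.51, 4.77 and 13.3 UMIs in the main and at 9.96, 8.29, 4.17 and 14.6 in the cycling clusters, lower in mice 27, 31 and 33 and higher in mouse 34.

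Plcg2 was at 179, 241, 119.9 and 127 CPM in the main and 182, 181, 110.4 and 121 in the cycling clusters, lower in mouse 31 and close in mice 27, 33 and 34. Blnk of mouse 31 was low throughout, at 41.7 CPM in the main cluster, 14.8 in the cycling one and 11.3 in a further cluster with fewer UMIs per cell (a median of 6469). That further cluster also had little Lyn (76.5 CPM against 258 in the main cluster), Blk (5.65 against 37.8) and Syk (6.16 against 29.1), while its Btk (47.2 against 43.8) and Cd79a (779.8 against 813) were near the main cluster. A cluster of mouse 33 with few UMIs per cell (a median of 7502) had the same features, with Lyn at 89.3 CPM against 456, Blk at 15.7 against 76.5, Syk at 35.5 against 136 and Cd79a at 296 against 307. Depth and cluster cannot be told apart here.

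By mean over mice, Lyn and Syk were highest in neutrophil-like cells and the other genes in a group of B cells. Single groups of other classes were nevertheless high. Cd79a reached 619 CPM in endothelial-like and 464 in fibroblast-like cells, above the clone of mouse 33 at 279.9. Blnk reached 271 and 275 CPM in these classes, and Blk 88.9 in erythroid-like cells, above some clones. In T-like cells of the 7 mice, Cd79a was at 1.13 to 49.95 CPM (median 21.7), Cd79b at 1.38 to 27.7 (median 13.3) and Blnk at 0.251 to 36.8 (median 11.5). Cd79a and Cd79b of every B clone lay above every T-like group, whereas Blnk of mouse 31, at 35.8 CPM, did not. T-like cells of mice 30 and 32, whose nodules held few B cells, were lowest for Cd79a, at 2.01 and 1.13 CPM, against 12.8 to 49.95 in the nodules with a B clone. The part of free RNA in these levels was not tested.

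Lyn was at 674 ± 199.8 CPM (SD, n = 7) in macrophage or monocyte-like and 727 ± 263 (SD, n = 6) in neutrophil-like cells, and Syk at 246 ± 86.1 and 299 ± 136 CPM. The mean of both genes was higher there than in the clones, but the ranges overlapped, for Lyn at 366 to 893 in macrophage or monocyte-like cells and 228 to 494 in the clones, and for Syk at 111 to 367 and 28.3 to 118. Both kinases act downstream of Fc receptors and integrins in myeloid cells. Btk and Plcg2, which myeloid cells also use, were at 34.7 ± 11.2 and 73.8 ± 27.2 CPM (SD, n = 7) in macrophage or monocyte-like cells, with ranges that overlapped those of the clones for both. Blk was at 9.27 ± 11.3 CPM (SD, n = 7) there, below every clone.

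The T cell clones of mice 30 and 32 were at 1.11 and 0.974 CPM for Cd79a. The clone of mouse 32 was at 40.7 CPM for Syk and 50.2 for Cd22, and that of mouse 30 at 3.69 and 4.06 CPM. Syk, which most mature T cells replace with ZAP70, was thus higher in the T clone of mouse 32, with no replicate check. T clones were taken by receptor over all clusters. Of all clone cells, 226 fell in an unnamed cluster with erythroid markers, 99 in a neutrophil-like and 61 in an erythroid-like one. Each of these clusters came mostly from mouse 32. Whether such cells give the Syk and Cd22 of this clone was not tested. B-like cells of these mice, 79 and 47 in number, were at 234 and 105 CPM for Cd79a, below every B clone.

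**Figure D5:**
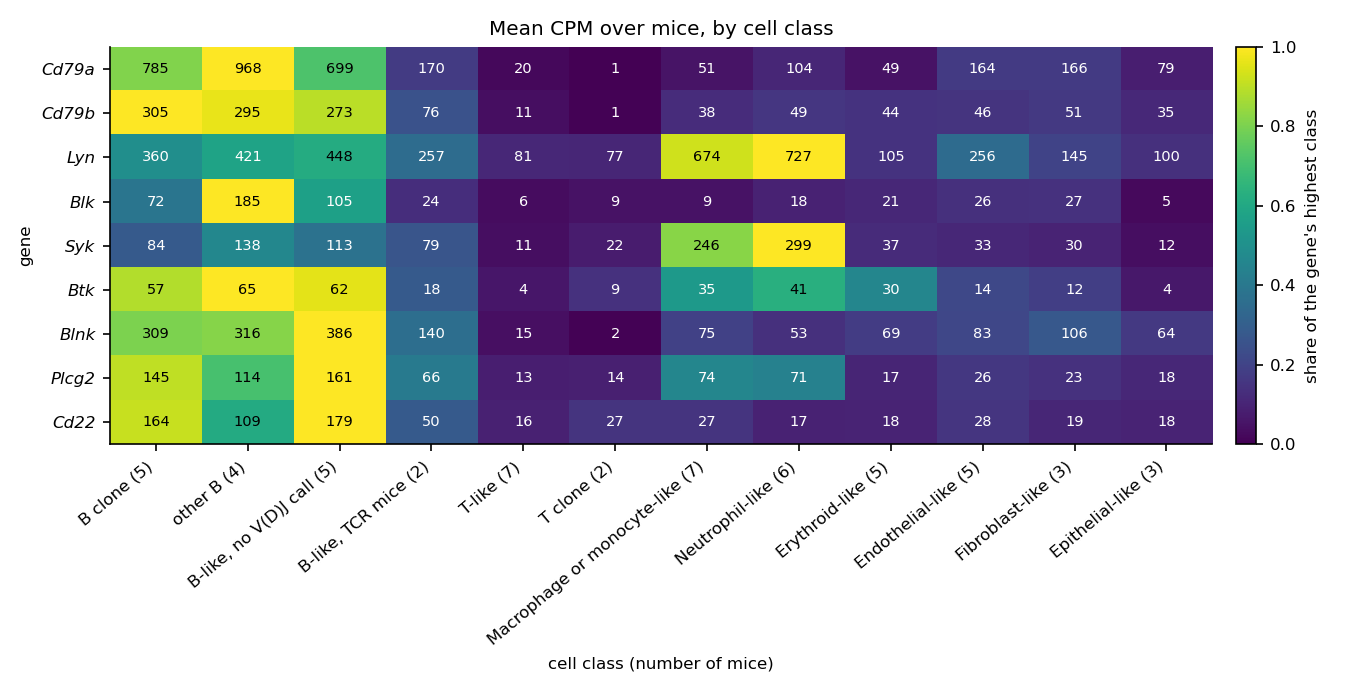
Mean CPM over mice for the 9 genes (rows) in each cell class (columns, number of mice in brackets), with the value in each cell and the color giving its share of the highest class of that gene. Values are to be read along a row, and Lyn and Syk are highest in neutrophil-like cells, at 727 and 299.

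Over 40 sums of a mouse and cell class with at least 50 cells, the genes with the most similar pattern were found by Pearson's r of log2(CPM + 10) among 6775 genes. These sums share libraries and cell classes, and r describes only likeness. Cd79a was most like Iglc2 (r = 0.977) and Iglc3 (0.964), and Cd79b most like Mzb1 (0.966) and Iglc2 (0.959), which are immunoglobulin light chain genes and a chaperone of the secretory pathway. Blk was most like H2-Ob (0.933) and H2-Eb2 (0.924), Cd22 most like Pou2af1 (0.925) and Ms4a1 (0.912), and Blnk most like Bcar3 (0.884). H2-Ob, Pou2af1 and Ms4a1 were among the markers that named the B-like clusters, so their likeness to Blk and Cd22 over these classes is partly built in. Syk was most like Spi1 (0.910), which encodes a myeloid and B cell transcription factor, and for Lyn a value of 0.838 was reached by Cybb, which encodes a subunit of the phagocyte oxidase. Plcg2 was most like Rubcnl (0.897) and Ptpn6 (0.889), and Btk most like Wdfy4 (0.825) and Gatm (0.795).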

How the data were processed

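Raw UMI counts per gene and cell were deposited by the authors as 7 matrices of called cells (at least 500 UMIs each, build GRCm38/mm10 per the labels), and V(D)J contigs with their calls as 7 further files. The aligner and annotation are not given in the sources used here. The labels name a 5′ kit, as the study's methods do for V(D)J libraries. For RNA libraries of single cells in general these name a 3′ one, and the priming end was not tested. Cells with at least 201 UMIs, 101 genes and at most 10% mitochondrial UMIs were kept (75503 of 77442), as in the study, and clustered without the 9 genes and the pathway list (leidenalg 0.10.2, 35 clusters). Clusters were named by marker lists, with at least 3 markers needed. No cells were removed as doublets. Neither Harmony nor the study's annotation was used.

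UMI counts were summed per mouse and cell group, with at least 20 cells a sum (at least 5 in the 2 alternatives added after seeing the data), and tested with edgeR 4.0.16 (R 4.3.3): quasi-likelihood test, TMM, filterByExpr, mouse as block and Benjamini-Hochberg adjustment over all genes at 0.05. DESeq2 1.42.0 was an alternative. The mouse is the replicate, and both sums of a pair come from 1 animal and library. Deviations of paired sums correlated at 0.180 to 0.457 for clone against other B cells and at 0.711 to 0.933 for the heavy contig comparison. The code was tested on simulated data. The clone comparison recovered 8.7% of changes of 2-fold and 52.7% of those of 4-fold, and the heavy contig comparison 80.2% and 97.9%. CPM of summed counts carry 95% exact Poisson intervals, ratios exact binomial ones and shares Clopper-Pearson ones, and all cover counting error only. Comparisons of single clones, clusters or heavy chain variants have 1 animal a side and no test.

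The members and the lists were chosen with earlier results of these data known. All 9 members are named, whatever their values. Of the pathway list, genes past the threshold are named. For each member, the 2 genes with the highest correlation are named, among those with a mean of at least 20 CPM. Some correlated genes and 1 group of the pathway list are not reported here. Promoters and coordinates come from RefSeq (GRCm38.p6).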

Additional observations from a re-analysis of the deposited data

Results flagged for a closer look

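In groups of 4 or 5 mice, the highest or lowest value was called apart when its gap to the nearest other value, divided by the range, passed Dixon's 95% limit. Of 39 such groups 5 passed, where chance gives about 1 in 20 for independent groups. These groups share mice and values, so an excess over chance cannot be read from this count. The level of Syk in the other B cells of mouse 29 was 97.1 CPM, below the other 3 mice, which lay close together at 149.97 to 153. The log2 difference of Syk between clone and other B cells was -2.42 in mouse 31, against -0.40 to -0.07 in mice 29, 33 and 34. Plcg2 in the other B cells of mouse 31 was at 166 CPM, above 91.7 to 103 in the rest, on 23 UMIs. The ratio of Cd79a to Cd79b UMIs in mouse 33 was 1.26 in the clone and 0.914 in the B-like cells without a receptor call, in both groups below the other 4 mice.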

How the results depend on the processing

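None of the 9 genes passed the threshold under any of 16 alternatives of the clone comparison or 13 of the heavy contig comparison. The 30 genes called between clones and other B cells became 151 with DESeq2, 117 without a filter on low counts, 0 without the replicate block, 7 without immunoglobulin genes, 0 with the B-like cells of the TCR mice added and 142 without the other B cells that share a V gene with the clone (added after seeing the data), and 28 to 98 with 1 mouse left out (98 without mouse 31). The 2 genes of the heavy contig comparison became 76 without the filter, 0 without the replicate block, 0 without immunoglobulin genes and 0 to 12 with 1 mouse left out (0 without mouse 29, 1 without mouse 31, 6 without mouse 33 and 12 without mouse 34). The causes of these changes were not tested, apart from the smaller gene list without immunoglobulin genes. Without the pairing, calls fell to 0 in both comparisons, with 578 and 1 genes at an unadjusted p under 0.05.

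Directions that turned in the clone comparison (log2) were those of Cd79a (0.085) and Lyn (0.093) in cells of 5000 to 15000 UMIs, an alternative added after seeing the data. Cd79b turned to -0.14 with DESeq2, -0.12 with RLE size factors, -0.074 without the replicate block, -0.091 with the authors' clonotype and, over mice left out, lay between -0.11 (without mouse 29) and 0.047. Btk turned to 0.032 with other B cells of any cluster, 0.36 without those sharing a V gene and 0.25 in cells of 5000 to 15000 UMIs. Blnk turned to 0.039 with the TCR mice added and lay between -0.72 and 0.16 (without mouse 31) over mice left out. In the heavy contig comparison Cd79a turned to -0.0044 with DESeq2 and -0.0049 with RLE size factors, and Cd22 to 0.020 without the filter. Over mice left out there, Cd79a lay between -0.039 (without mouse 34) and 0.042, with -0.0026 without mouse 27, Cd79b between -0.0046 (without mouse 33) and 0.18, Blnk between -0.013 (without mouse 29) and 0.10, and Cd22 between -0.13 and 0.074 (without mouse 34). The other 132 of 144 and 109 of 117 values kept direction and side. Mean CPM over the clones (81 alternatives) and the Cd79a to Cd79b ratio (7) moved by less than 1 SD, although the mean of Cd22 went from 164 to 108 CPM without mouse 31. Depth limits the other B cells, with 24 to 41 cells a mouse.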
